A study of Mus musculus with 24 samples.

Results

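The hepatic aquaporins are 5 of the 55536 genes of the deposited expression table, taken by their symbols: Aqp1, Aqp4, Aqp8, Aqp9 and Aqp11. Each symbol occurred in 1 row. Liver RNA had been sequenced in 24 libraries, 8 from each of 3 groups of mice, all wild type, of the Balb/c strain and aged 6 weeks. The Con group held healthy controls, the AP group mice with acute pancreatitis, an inflammation of the pancreas, and the SAP group mice with severe acute pancreatitis, which can damage distant organs. The sources used here do not give how pancreatitis had been induced or when livers had been taken. The libraries are numbered, but nothing says that each came from a mouse of its own, so p-values reflect only the spread among libraries, and "liver" below means 1 library.

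Aquaporins are membrane channels that let water, and in some members small uncharged solutes, cross lipid bilayers. Hepatocytes use them to move water into bile, to take up glycerol for glucose synthesis and to release urea, and Aqp8 and Aqp9 are the members known for these tasks. Aqp8 lies in vesicles, in the bile canalicular membrane and in the inner mitochondrial membrane, and also conducts hydrogen peroxide and ammonia. Aqp9 is an aquaglyceroporin of the sinusoidal membrane, through which glycerol enters the cell. Aqp11 is an unorthodox member found in the endoplasmic reticulum, Aqp1 is the water channel of red cells, endothelium and bile duct cells, and Aqp4 is best known from astrocytes and has been described in bile duct cells of the rat.

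Levels are in TPM, read numbers divided by transcript length and scaled to a fixed total per library, so that genes can be set beside each other. Libraries summed to between 986423 and 993642 TPM, and because TPM keeps no read counts the depth is unknown. Of all genes, the 10555 whose mean over the 24 libraries reached 1 TPM were tested with limma, among them Aqp1, Aqp8, Aqp9 and Aqp11. Aqp4, with a mean of 0.295 TPM, was not among them. A change is a difference in log2(TPM + 1), which understates changes at low levels, and is given with its standard error (SE). A fold is that change off the log scale, so it is a fold of TPM + 1 and can differ from the ratio of the mean TPM. The threshold was a p under 0.05 after Benjamini-Hochberg adjustment over all genes tested. Between AP and controls 5.48% of genes passed (4.35% higher and 1.13% lower in AP). Between SAP and controls it was 74.0% (44.2% higher, 29.8% lower), and between SAP and AP 72.1% (41.0% higher, 31.0% lower), so a single call in SAP is common among genes. AP and SAP were compared with the same 8 controls. The hepatocyte markers Alb, Apoa1, Apob, Ttr, Cyp2e1, Fah, Tat and Hnf4a summed to between 37490 and 53480 TPM in all 24 libraries. Transcripts of the mitochondrial genome made up 12.5 to 22.2% of TPM in controls, 7.81 to 13.7% in AP and 2.80 to 6.26% in SAP, and their part in the results below was not tested. In liver RNA, fewer cells of a type and less RNA per cell cannot be told apart.

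In control livers Aqp9 (53.0 ± 10.8 TPM, SD, n = 8) and Aqp8 (48.0 ± 13.4 TPM) stood highest, and their ranges overlapped, with Aqp9 above Aqp8 in 5 of 8 libraries. Aqp11 followed at 27.6 ± 6.49 TPM, below Aqp8 in 8 of 8 libraries though the ranges of the pair overlapped. Aqp1 was at 5.92 ± 2.71 TPM, with every library below the lowest Aqp11 value, and Aqp4 at 0.228 ± 0.0922 TPM. In AP livers the order of means was the same, and Aqp9 lay above Aqp8 in 8 of 8 libraries. In SAP livers Aqp8 stood alone at 53.2 ± 10.3 TPM. Aqp1 (10.1 ± 4.41 TPM), Aqp11 (7.84 ± 3.65 TPM) and Aqp9 (7.34 ± 1.16 TPM) lay close together there, and neighbours in that order overlapped. The summed level of the 5 genes was 135 ± 28.2 TPM in controls, 139 ± 23.2 TPM in AP and 78.7 ± 10.4 TPM in SAP. Of that sum Aqp9 took 39.6 ± 2.72% in controls and 9.34 ± 1.15% in SAP, and Aqp8 took 35.3 ± 5.31% and 67.6 ± 8.79%.

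**Figure D1:**
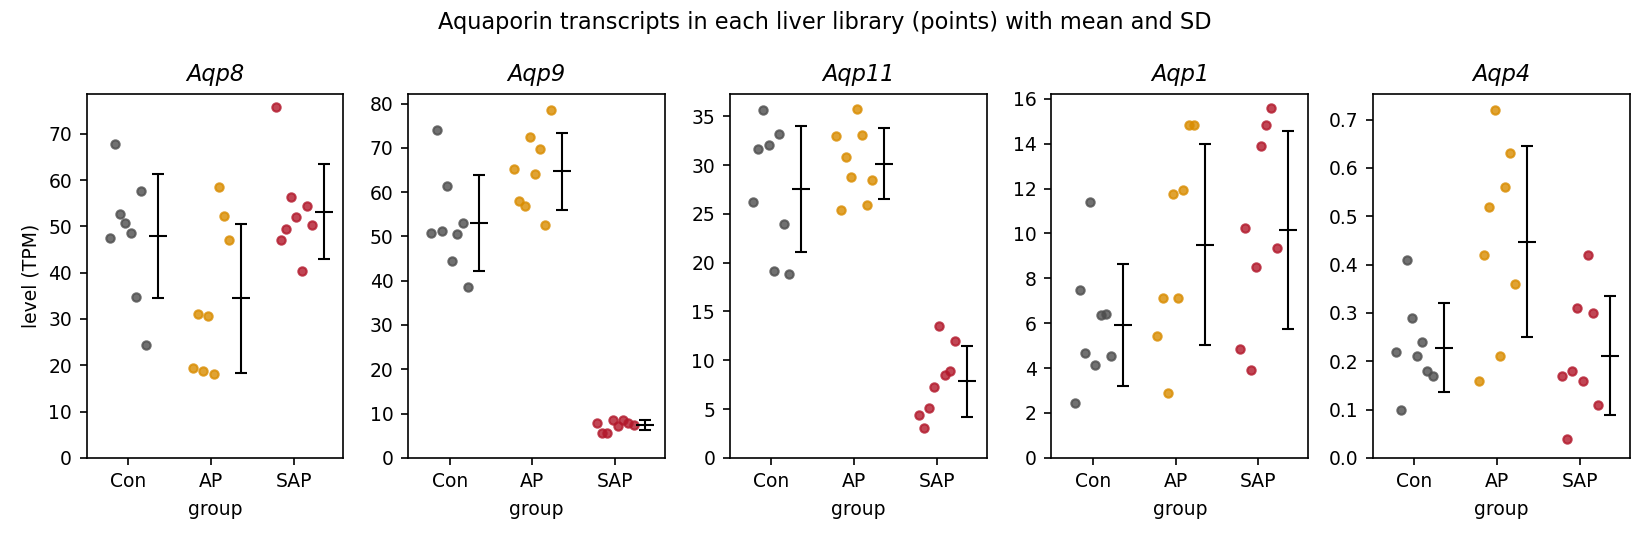
Level of each aquaporin in TPM (vertical axis, its own scale per gene) in the 8 libraries of each group (points), with the mean and SD of the group to the right. The 8 SAP values of Aqp9 lie between 5.59 and 8.5 TPM, below every other library, while those of Aqp8 (40.41 to 75.8 TPM) overlap with the controls.

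**Figure D2:**
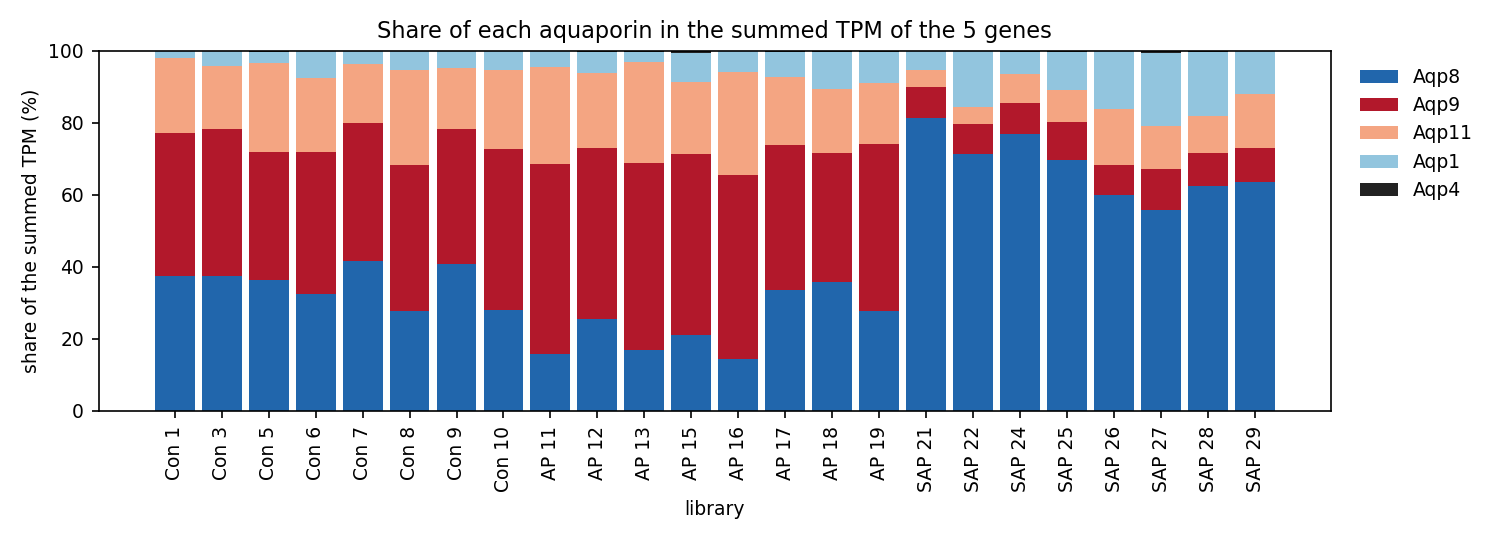
Share of each aquaporin in the summed TPM of the 5 genes (vertical axis, %), 1 bar per library. Aqp8 takes 55.7 to 81.4% of the sum in SAP livers and 14.4 to 41.6% in the other livers.

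The comparison of SAP with control livers asked how hepatic transcripts differ in severe pancreatitis. Aqp9 and Aqp11 fell, each in all 8 livers below every control, while Aqp8 and Aqp1 did not pass. Aqp9, the glycerol channel, lay between 38.58 TPM (Con 10) and 74.11 TPM (Con 3) in controls, with a median of 51.0 TPM. In SAP it lay between 5.59 and 8.5 TPM with a median of 7.67 TPM. The 2 groups did not overlap, and the SAP livers were close to one another, with an SD of 15.9% of the mean. The change was -2.68 ± 0.12 (SE), a 6.43-fold fall of TPM + 1 beside a 7.22-fold ratio of the mean TPM (limma adjusted p = 9.33e-16). Only 210 of the 10555 genes tested had a lower value of that change. Of all genes tested, 14.6% lay below every control in all 8 SAP livers.

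Aqp11, the channel of the endoplasmic reticulum, lay between 18.81 TPM (Con 10) and 35.62 TPM (Con 5) in controls, with a median of 28.9 TPM. In SAP it lay between 3.1 TPM (SAP 22) and 13.55 TPM (SAP 26), with a median of 7.88 TPM. The groups again did not overlap, but the SAP livers were spread more widely than for Aqp9, with an SD of 46.6% of the mean. The change was -1.77 ± 0.20, a 3.42-fold fall (limma adjusted p = 2.77e-08). SAP 21, 22, 24 and 25 were at 3.1 to 7.25 TPM and SAP 26 to 29 at 8.5 to 13.55 TPM. The labels give no reason for a division at these numbers. For Aqp9 these sets overlapped, at 5.59 to 8.5 TPM in the former and 7.3 to 8.45 TPM in the latter. Against controls the fall of Aqp11 was -1.27 without SAP 21, 22, 24 and 25 and -2.27 without SAP 26 to 29. No label names these sets, and the values of Aqp11 differ between them without a wide gap, so no p is given.

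Aqp8, the channel of the canalicular and inner mitochondrial membranes, lay between 24.31 and 67.83 TPM in controls (median 49.6 TPM) and between 40.41 and 75.8 TPM in SAP (median 51.1 TPM). Of the SAP livers 7 lay within the range of controls, and SAP 21 lay above it. The change was 0.18 ± 0.23 (limma adjusted p = 0.487) with a 95% interval of -0.30 to 0.66, beside a median of 0.21 over all genes tested, and its sign turned to -0.09 when each library was centred on its median. Aqp1, the water channel of red cells and endothelium, lay between 2.46 and 11.38 TPM in controls (median 5.51 TPM) and between 3.91 and 15.58 TPM in SAP (median 9.78 TPM). SAP 26, 27 and 28 lay above every control and the other 5 SAP livers within their range. The change of 0.66 ± 0.30 did not pass (limma adjusted p = 0.0506). It passed without any 1 of Con 3, Con 6, AP 13, AP 18, AP 19, SAP 21 or SAP 24, at adjusted p between 0.016 and 0.048, and did not pass without any other library. It was 1.13 without SAP 21, 22, 24 and 25 and 0.20 without SAP 26 to 29. No label divides the SAP livers into these sets, so no p is given.

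**Figure D3:**
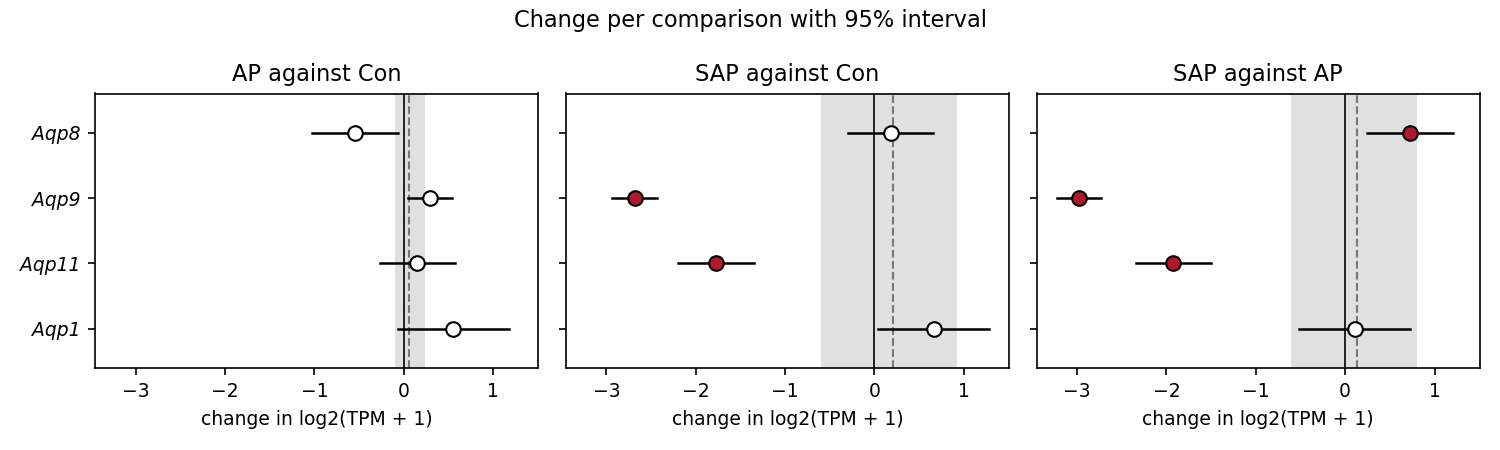
Change in log2(TPM + 1) of the 4 aquaporins tested (points) with its 95% interval (lines) in the 3 comparisons. Filled points passed at an adjusted p under 0.05, the dashed line is the median of all 10555 genes tested and the grey band spans their quartiles. Aqp9 and Aqp11 lie left of the band in both comparisons with SAP.

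The upstream sequences of Aqp9, Aqp11 and Aqp8 are shown because the first 2 fell together in SAP and the third, beside them in function, did not. They are the 250 bases before each transcript start in RefSeq on build GRCm38.p6, 5′ to 3′ on the strand of the gene, and 4 of the 5 aquaporins had an entry. Capitals mark matches, on either strand, to any of 7 motifs searched, and overlapping matches were allowed. The TATA box was searched as TATAAA and the motif of FOX factors, which include hepatocyte regulators, as TGTTTNC. The HNF1 core was searched as GTTAAT and the motif of C/EBP factors as TTGCNNAA. STAT factors, which act in the acute-phase response, were searched as TTCNNNGAA and AP-1 as TGANTCA, beside the NF-kB motif. Aqp9 has 2 annotated starts on the minus strand, with upstream windows at chr9:71163290-71163539 and chr9:71162634-71162883. The window of Aqp11 is chr7:97738248-97738497 on the minus strand, and that of Aqp8 is chr7:123462044-123462293 on the plus strand.
Aqp9, upstream start: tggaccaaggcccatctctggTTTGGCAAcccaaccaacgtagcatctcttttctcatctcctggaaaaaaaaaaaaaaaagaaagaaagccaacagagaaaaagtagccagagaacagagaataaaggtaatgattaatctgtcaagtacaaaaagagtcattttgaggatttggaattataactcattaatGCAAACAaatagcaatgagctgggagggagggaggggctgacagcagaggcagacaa
Aqp9, downstream start: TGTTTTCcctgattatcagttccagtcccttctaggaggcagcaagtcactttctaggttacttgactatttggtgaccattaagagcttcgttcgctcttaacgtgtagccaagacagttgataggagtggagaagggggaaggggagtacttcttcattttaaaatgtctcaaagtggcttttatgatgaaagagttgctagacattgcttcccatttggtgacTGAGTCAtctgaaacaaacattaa
Aqp11: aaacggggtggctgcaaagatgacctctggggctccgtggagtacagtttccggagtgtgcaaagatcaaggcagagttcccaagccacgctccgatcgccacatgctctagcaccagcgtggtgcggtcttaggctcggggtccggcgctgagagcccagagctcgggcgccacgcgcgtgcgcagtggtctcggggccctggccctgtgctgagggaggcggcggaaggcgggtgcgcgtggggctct
Aqp8: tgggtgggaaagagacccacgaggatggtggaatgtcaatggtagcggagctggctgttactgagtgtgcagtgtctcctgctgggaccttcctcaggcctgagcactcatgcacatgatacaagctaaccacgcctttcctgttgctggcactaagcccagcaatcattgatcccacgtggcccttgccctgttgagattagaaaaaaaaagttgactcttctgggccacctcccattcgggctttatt
The window of the upstream Aqp9 start held TTTGGCAA, a C/EBP match on the opposite strand, and GCAAACA, a FOX match on the opposite strand that lies 57 to 51 bases before the start. The window of the downstream start held the FOX match TGTTTTC and the AP-1 match TGAGTCA. None of the 7 motifs matched in the windows of Aqp11, Aqp8 or Aqp1. Over all 32851 windows of that length in the table, 17.8% held the FOX motif, 9.56% the C/EBP motif and 6.75% the AP-1 motif, so such matches are common and mark no binding. The shares were 12.4% for the TATA box, 6.43% for the HNF1 core, 7.02% for STAT and 0.356% for NF-kB. The windows also differed in base composition, with 67.2% G and C for Aqp11, 40.4% and 41.6% for Aqp9 and 52.4% for Aqp8, beside a median of 52.4% over all windows.

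In the GENCODE M21 annotation none of the 50-base windows of Aqp1, Aqp4, Aqp8 and Aqp9 transcripts occurred in another gene, and 0.233% of those of Aqp11 did. Aqp9 overlaps the predicted genes Gm32511 and Gm47268 on the opposite strand. Gm32511 was between 0.39 and 5.56 TPM in controls, between 0.09 and 1.61 TPM in AP and listed at 0 in all 8 SAP livers, and Gm47268 reached at most 0.08 TPM. Whether counting used strand is not given in the sources used here, so reads of Aqp9 and Gm32511 cannot be told apart where they overlap. The mean level of Gm32511 in controls was 1.81 TPM against 53.0 TPM for Aqp9.

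AP livers were set against controls to see what differs in acute pancreatitis not labelled severe, and none of the 4 aquaporins tested passed. Their unadjusted limma p was 0.0772 for Aqp1, 0.0272 for Aqp8, 0.0226 for Aqp9 and 0.468 for Aqp11. Aqp9 lay between 52.46 and 78.61 TPM in AP, with a median of 64.6 TPM, and 7 of 8 livers were within the range of controls. Its change was 0.29 ± 0.12 (limma adjusted p = 0.155). Without Con 3, the control with the highest Aqp9 and Aqp8, the change was 0.37 and passed (adjusted p = 0.0493), and with array weights it was 0.34 and passed (adjusted p = 0.0225). Aqp11 lay between 25.39 and 35.71 TPM in AP, against 18.81 to 35.62 TPM in controls, with a change of 0.15 ± 0.20 (adjusted p = 0.747). The lowest control value of Aqp8, Aqp9 and Aqp11 came from Con 10, where mitochondrial transcripts took 21.9% of TPM. Con 7, where they took 22.2%, had Aqp8 at 48.48 TPM, near the control median, with Aqp9 at 44.49 TPM and Aqp11 at 19.15 TPM.

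Aqp8 divided the AP livers. AP 17, 18 and 19 were at 47.04 to 58.54 TPM, within the range of controls, and AP 11, 12, 13, 15 and 16 at 18 to 31.16 TPM. Of the latter, AP 11, 13 and 16, lay below every control. The change over all AP livers was -0.54 ± 0.23 (limma adjusted p = 0.170), and it passed after quantile normalization at -0.70 (adjusted p = 0.0456). Aqp1 was uneven among the same livers in another way, at 11.77 to 14.85 TPM (above every control) for AP 15, 17, 18 and 19, and at 2.88 to 7.13 TPM for AP 11, 12, 13 and 16. Its change was 0.55 ± 0.30 (adjusted p = 0.308). Mitochondrial transcripts took 7.81 to 10.3% of TPM for the former 4 and 11.5 to 13.7% for the latter 4, and their part in these values was not tested.

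Between SAP and AP livers Aqp9 and Aqp11 fell and Aqp8 rose. Aqp9 was 7.88-fold lower in SAP (change -2.98 ± 0.12, limma adjusted p = 1.29e-16), with 137 of 10555 genes at a lower value of the change. Aqp11 was 3.79-fold lower (-1.92 ± 0.20, adjusted p = 7.76e-09), and for both genes all 8 SAP livers lay below every AP liver, as for 15.2% of genes tested. Aqp8 was 1.65-fold higher in SAP (0.73 ± 0.23, adjusted p = 0.00727), although 7 of 8 SAP livers lay within the range of AP. Without SAP 21, 22, 24 and 25, a set that no label names, the change was 0.63. It did not pass there, but fewer livers alone also raise p. Aqp1 changed by 0.11 ± 0.30 (adjusted p = 0.763), and its sign turned under quantile normalization, under centring on the median, without AP 13 and without SAP 26 to 29.

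Ratios within a library do not depend on how that library was scaled, so the 3 hepatocyte members were also set against each other. The ratio of Aqp8 to Aqp9 was 0.63 to 1.09 in controls, 0.281 to 0.994 in AP and 4.78 to 9.51 in SAP. Its log2 value was 3.03 higher in SAP than in controls (p = 0.000155 in a two-sided exact permutation test, which cannot go lower with 8 against 8 libraries, and 0.00035 adjusted over 9 ratios). In AP it was 0.86 below controls (adjusted p = 0.00899 in the exact permutation test). Of the AP livers 2, AP 17 and 18, lay within the range of controls for this ratio. The ratio of Aqp8 to Aqp11 was 1.05 to 2.53 in controls and 3.84 to 17.4 in SAP, again without overlap (log2 difference 2.11, exact permutation adjusted p = 0.00035). Aqp9 and Aqp11 each lay below every control in SAP, so these 2 ratios are not independent of the single-gene results. How often other pairs of genes show no overlap was not tested. Aqp9 fell further than Aqp11. The ratio of Aqp9 to Aqp11 was 1.44 to 2.35 in controls, 1.80 to 2.76 in AP and 0.539 to 1.83 in SAP, 0.92 lower on the log2 scale in SAP than in controls (exact permutation p = 0.00202, adjusted p = 0.00303). Between AP and controls that ratio differed by 0.14 (exact permutation adjusted p = 0.261) and that of Aqp8 to Aqp11 by -0.72 (exact permutation adjusted p = 0.0507). Between SAP and AP the log2 differences were 3.89, 2.83 and -1.06 for Aqp8 to Aqp9, Aqp8 to Aqp11 and Aqp9 to Aqp11 (exact permutation adjusted p = 0.00035, 0.00035 and 0.000839).

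**Figure D4:**
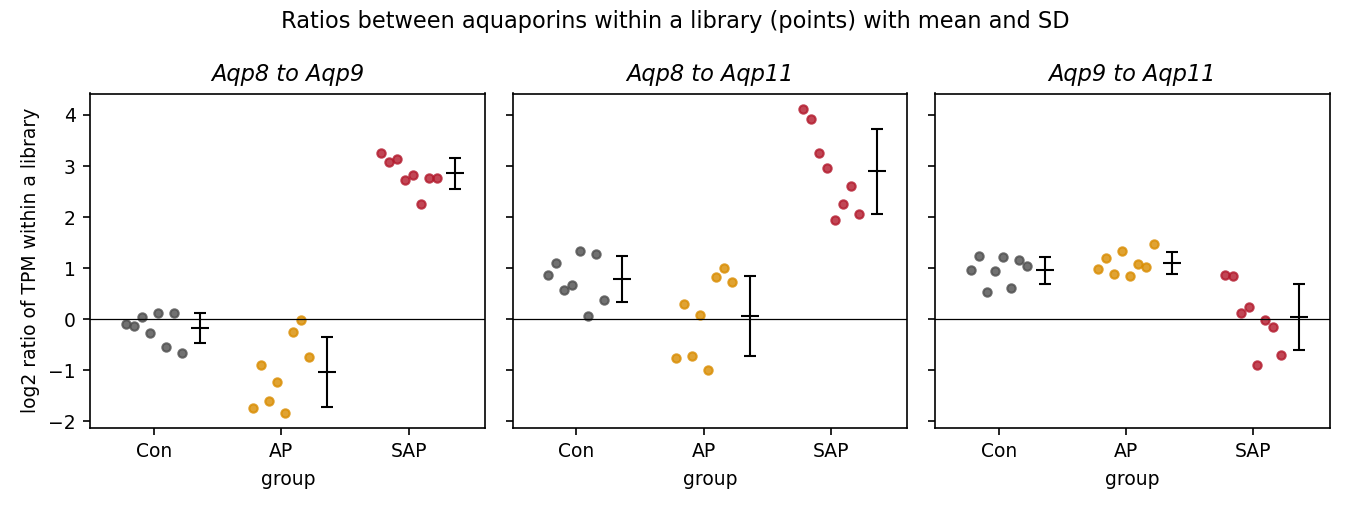
Log2 ratio of TPM between pairs of aquaporins within each library (points, vertical axis), with the mean and SD of the group to the right. For both ratios with Aqp8 as numerator the 8 SAP livers lie above all others, and the ratio of Aqp9 to Aqp11 spans 0 in SAP.

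Aqp4 was detected at a low level in each of the 24 libraries. It lay between 0.1 and 0.41 TPM in controls (median 0.215 TPM), between 0.16 and 0.72 TPM in AP (median 0.47 TPM) and between 0.04 and 0.42 TPM in SAP (median 0.175 TPM). Of the AP livers 5 lay above every control, and SAP and controls overlapped throughout most of their ranges. The change between AP and controls was 0.23 (exact permutation test, two-sided, p = 0.0162 unadjusted), and with all 26977 genes above 0 in limma its adjusted p was 0.170, where 0.823% of genes passed. At so low a level the size of the change rests on the pseudocount, and it was 0.69 with a pseudocount of 0.1 and 0.89 with 0.01 (exact permutation p = 0.0193 and 0.021), beside a 1.97-fold ratio of the mean TPM. Between SAP and AP the change was -0.25 (exact permutation p = 0.0152 unadjusted, adjusted p = 0.011 in limma without a filter, where 38.8% of genes passed), and it was -0.82 and -1.14 with those pseudocounts. With a pseudocount of 1 it was -0.21 without SAP 21, 22, 24 and 25, a set that no label names. The exact permutation p was then not under 0.05, but fewer livers alone also raise p. Between SAP and controls the change was -0.02, and -0.13 and -0.25 with the smaller pseudocounts (exact permutation p = 0.731, 0.625 and 0.558).

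The other 7 aquaporins of the mouse stood at or near 0. Aqp2, the vasopressin-regulated channel of the kidney, Aqp6 and Aqp12, the latter known from pancreatic acinar cells, were listed at 0 in all 24 libraries. Aqp7, the glycerol channel of adipocytes, reached at most 0.1 TPM in any library and Mip, the channel of lens fibres, at most 0.06 TPM. Aqp3, an aquaglyceroporin of epithelia, was listed above 0 in 5 SAP livers (up to 0.05 TPM) and in no other liver. Aqp5, the channel of salivary and lung epithelium, was above 0 in 4 AP livers (up to 0.24 TPM) and 2 SAP livers (up to 0.03 TPM). Of the aquaglyceroporins, Aqp9 was the only one above 0.1 TPM in any of these libraries.

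Genes that make, move or use what these channels carry were taken as lists, and where 5 or fewer members are named beyond the rule for naming, they were chosen after their values were seen. Of 15 tested genes of glycerol supply and use, 4 rose and 7 fell in SAP against controls, with a median change of -0.52, beside 0.21 over all genes. Over all genes tested, 44.2% rose and 29.8% fell. Pnpla2, the lipase that starts triglyceride breakdown, rose 4.09-fold from 18.5 ± 4.86 to 79.7 ± 23.0 TPM (limma adjusted p = 1.82e-10). Mgll, which releases glycerol from monoglycerides, fell 2.55-fold from 29.1 ± 3.81 to 11.4 ± 4.33 TPM (adjusted p = 3.05e-07). Gk, the glycerol kinase that traps the glycerol entering through Aqp9, rose by 0.61 (adjusted p = 0.000446). Gpd1, which oxidises or makes glycerol 3-phosphate in the cytosol, went from 38.3 to 21.7 TPM (adjusted p = 7.17e-05). In AP, Gpd1 (change 0.60, limma adjusted p = 0.0384) and Fbp1, an enzyme of glucose synthesis (1.02, limma adjusted p = 0.0168), rose and the other 13 did not pass. Of all genes tested, 4.35% rose in AP.

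Among 10 tested transporters of the bile canaliculus and of organic cations, 8 fell and 0 rose in SAP, with a median change of -1.23. Of all genes tested, 29.8% fell and 44.2% rose. Abcb11, the bile salt export pump, fell from 159 ± 25.4 to 4.48 ± 2.03 TPM (change -4.94, limma adjusted p = 1.21e-17). Slc47a1, an exporter of organic cations, fell from 23.4 ± 4.99 to 3.85 ± 1.36 TPM (change -2.35, adjusted p = 2.77e-12). Atp8b1, a lipid flippase, and Slc4a2, the chloride and bicarbonate exchanger that works beside aquaporins in bile formation, did not pass (changes -0.48 and -0.08, adjusted p = 0.0993 and 0.722). Aqp8 lay within the range of controls in 7 of 8 SAP livers, the group in which 8 of these 10 transporters fell. In AP none of the 10 passed in limma, where 5.48% of all genes tested did.

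Of 9 tested genes of urea synthesis and ammonia handling, 1 rose and 5 fell in SAP (median change -0.46), beside 44.2% and 29.8% of all genes tested. Arg1, the arginase that releases urea, rose 2.55-fold from 413 ± 72.0 to 1102 ± 416 TPM (limma adjusted p = 2.37e-06), while Gls2, the glutaminase that frees ammonia, fell 3.43-fold from 86.4 ± 19.5 to 26.4 ± 11.6 TPM (adjusted p = 5.30e-07). Of 15 genes that handle hydrogen peroxide and superoxide, 5 rose and 0 fell in AP (median change 0.28), beside 4.35% and 1.13% of all genes tested. In SAP 6 rose and 7 fell (median -0.24), beside 44.2% and 29.8%. Sod2, the superoxide dismutase of mitochondria, rose 5.79-fold in SAP from 125 ± 27.3 to 716 ± 60.2 TPM (adjusted p = 6.51e-16), whereas Prdx2, a cytosolic peroxiredoxin, fell 3.24-fold from 165 ± 26.2 to 49.7 ± 4.39 TPM (adjusted p = 1.33e-12). Of 13 tested genes for factors described at aquaporin genes or for the insulin receptor and its adaptors, 6 rose and 3 fell in SAP (median 0.33). The shares over all genes tested were 44.2% and 29.8%. Irs2, an adaptor of the insulin receptor, was at 1.12 ± 0.503 TPM in controls, 0.611 ± 0.271 TPM in AP and 7.08 ± 2.98 TPM in SAP. It is among the 6, but its mean reached the filter only through SAP, so no test is given for it. Rara, a retinoic acid receptor, fell from 7.39 ± 1.10 to 2.80 ± 0.81 TPM (change -1.16, limma adjusted p = 9.60e-09). Foxa2, at 5.08 TPM in controls and 3.92 TPM in SAP, did not pass (adjusted p = 0.170).

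Markers of the other cells that could hold these channels were read beside them. In SAP against controls, 44.2% of all genes tested rose and 29.8% fell. For Aqp1, 8 endothelial markers summed to 19.7 to 49.0 TPM in controls, 17.8 to 49.0 TPM in AP and 17.5 to 56.6 TPM in SAP, and 7 reached the filter. Lyve1, of the sinusoids, was at 0.301 ± 0.158 TPM in controls, 0.318 ± 0.175 TPM in AP and 11.2 ± 5.13 TPM in SAP. It reached the filter only through SAP, so no test is given for it. Of the other 6, Cdh5 and Stab2 rose in SAP, and Clec4g fell from 17.8 ± 6.21 to 3.01 ± 1.05 TPM (limma adjusted p = 2.44e-09). Tek was at 1.58 ± 0.581 TPM in controls, 1.21 ± 0.380 TPM in AP and 0.371 ± 0.197 TPM in SAP. It reached the filter only through controls and AP, so no test is given for it either. The 8 bile duct markers summed to 14.4 to 30.1 TPM in controls, 15.2 to 38.0 TPM in AP and 28.3 to 85.4 TPM in SAP. Of 3 tested 2 rose, among them Spp1 (15.2 ± 3.98 TPM in controls and 48.4 ± 20.2 TPM in SAP, adjusted p = 3.12e-06). The duct channel Cftr and the secretin receptor Sctr were listed at 0 in all controls and at most 0.05 TPM elsewhere. Red cell markers summed to 176 to 626 TPM in controls, 114 to 741 TPM in AP and 79.2 to 277 TPM in SAP. Of 5 tested, Alas2 fell in SAP from 104 ± 11.0 to 36.4 ± 15.2 TPM (adjusted p = 4.26e-08), and the other 4, all globin genes, did not pass. Hbb-bs was at 28.3 ± 24.3 TPM in controls and 51.6 ± 27.7 TPM in SAP (adjusted p = 0.0766). Hba-a1 was at 79.0 ± 65.9 and 33.5 ± 16.0 TPM (adjusted p = 0.0835), Hba-a2 at 81.7 and 56.6 TPM and Hbb-bt at 4.87 and 4.31 TPM. Slc4a1, the anion exchanger of the red cell membrane, was below the filter and reached at most 0.06 TPM. The part of these cells in the Aqp1 values was not tested.

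For Aqp9, which leukocytes also express, 10 neutrophil markers summed to 2.74 to 29.2 TPM in controls, 3.74 to 7.63 TPM in AP and 125 to 350 TPM in SAP. S100a9 rose in SAP from 5.85 ± 5.42 to 135 ± 46.8 TPM (limma adjusted p = 2.59e-12), and S100a8 also rose. Retnlg was at 0.175 ± 0.139 TPM in controls, 0.234 ± 0.203 TPM in AP and 5.63 ± 2.22 TPM in SAP, and since it reached the filter only through SAP no test is given for it. The other 7 were below the filter, among them Elane, of neutrophil granules, at 0.205 TPM in controls and 0.0563 TPM in SAP. Aqp9 was lower in the group with more neutrophil marker RNA, and how much of its remaining level these cells held was not tested. For Aqp8, which the pancreas also expresses, 8 markers of the exocrine pancreas summed to at most 1.46 TPM in any library. Of 5 tested Kupffer cell markers, Marco rose and 4 fell in SAP, among them Cd5l (adjusted p = 1.08e-05 and 3.19e-05). Hepatocyte markers of the lobule's zones moved both ways in SAP, where 44.2% of all genes tested rose and 29.8% fell. Of 6 pericentral markers 2 were higher and 1 lower, and of 8 periportal markers 1 was higher and 4 lower. Glul, of the pericentral zone, rose 2.45-fold and Cyp2e1 1.74-fold, while the periportal markers Hsd17b13 and Pigr changed by 1.67 and -1.38 on the log2 scale (adjusted p = 1.33e-07, 0.000237, 1.11e-07 and 3.90e-08). Of the 8 general hepatocyte markers 3 rose and 3 fell in SAP, among them Tat (8.97-fold up) and Fah (2.36-fold down, adjusted p = 5.55e-13 and 5.05e-08).

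Genes of the most similar pattern were sought by the mean absolute difference, over the 24 libraries, between their log2(TPM + 1) values and those of an aquaporin after each was set relative to its control mean. Among 5216 genes whose mean reached 5 TPM, Camk2n1, an inhibitor of a calcium-dependent kinase, was nearest to Aqp9 with 0.169 log2 units per library, against a median of 1.14 over these genes. It was at 16.6 ± 2.80 TPM in controls, 18.9 ± 1.90 TPM in AP and 1.87 ± 0.359 TPM in SAP. C2cd2 followed at 0.217 log2 units, with 14.3 ± 3.38, 15.1 ± 3.51 and 1.91 ± 0.33 TPM. Nearest to Aqp11 were Kcnn2, a calcium-activated potassium channel, at 0.230 log2 units and Sephs2, an enzyme of selenoprotein synthesis, at 0.239, against a median of 0.876. Kcnn2 was at 11.0 ± 2.26 TPM in controls and 2.83 TPM in SAP, and Sephs2 at 178 ± 26.7 and 43.4 ± 18.5 TPM. Because these genes were picked for their pattern in the same libraries, no test is given for them. For Aqp8 the nearest genes were Pi4k2a and Rhog (0.333 and 0.341 log2 units, median 0.686), and for Aqp1 Ngrn and Mpv17 (0.280 and 0.294 log2 units, median 0.664). The measure rests on libraries of which SAP stands apart over most genes, and it is a description.

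**Figure D5:**
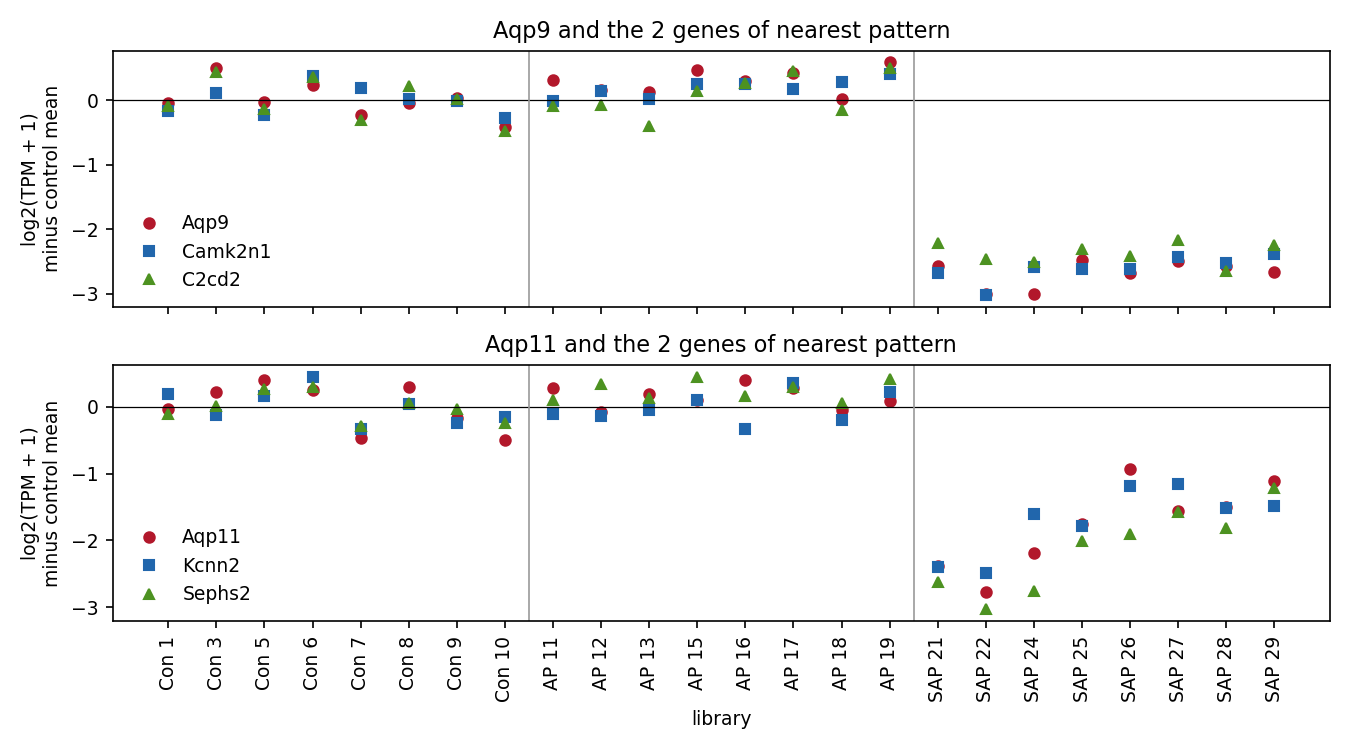
Log2(TPM + 1) minus the mean of the controls (vertical axis) in the 24 libraries, for Aqp9 and Aqp11 with the 2 genes of nearest pattern to each. In SAP the Aqp9 points stay level while those of Aqp11 range from its lowest value in SAP 22 to its highest in SAP 26.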

How the data were processed

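RNA had been extracted from frozen livers with Trizol and libraries made by Illumina protocols, per the labels' protocols. The authors deposited 1 table of 55536 genes by 24 libraries in TPM. The unit is not named in the header and was read from the near-constant column sums. The submitters' processing notes name edgeR without a version, and the sources used here name no aligner, build or annotation. Depth is unknown, so no counting interval was given, and because every library has the same total, more of some abundant transcripts means lower values elsewhere.

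All 24 columns were mapped to libraries by name, with 0 left over. Values were taken as log2(TPM + 1), and the 3 groups were fitted in limma 3.58.1 (R 4.3.3, trend option on, 21 residual degrees of freedom). The fit was tested on simulated data. Aqp4, below the filter, and ratios within libraries were compared by exact permutation over 12870 arrangements of 8 against 8. The members and lists were chosen with earlier results of these data known. The rule for naming took all aquaporins, the 2 members of each list with the smallest p over the 3 groups, and the 2 genes nearest in pattern to each tested aquaporin. Predicted genes were left out of the latter. Some further list members were named after their values were seen. Alternatives covered scaling, filter, pseudocount (0.1 and 0.01), variance model, the 2 groups alone and left-out libraries. Promoters come from RefSeq (GRCm38.p6), transcript windows from GENCODE M21. Values of some list members are not reported here.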

Additional observations from a re-analysis of the deposited data

Results flagged for a closer look

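Among 15 groups of 8 values (5 aquaporins in 3 groups), 1 had a library far from the others. Aqp8 in SAP 21 was at 75.8 TPM, and its distance to the next SAP liver made up 0.549 of the range of the group, above Dixon's critical value at the 95% level. Chance gives about 1 such library in 20 groups. Without SAP 21 the change of Aqp8 between SAP and controls did not pass, nor did it without any other single library.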

How the results depend on the processing

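No paired analysis was possible because the groups share no replicate numbers. Of 649 values of aquaporins and ratios under alternatives, 619 kept their direction and their side of the threshold. The falls of Aqp9 (log2 changes -2.96 to -2.60 against controls, -3.20 to -2.90 against AP) and Aqp11 (-2.27 to -1.27 and -2.42 to -1.42) in SAP passed under all 36 alternatives. Some of these could alter the p but not the change. They were the filters, limma without the trend option, the 2 groups alone, and leaving out a library of the group not compared. The cause was not tested for any value below.

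Aqp8 between AP and controls passed after quantile normalization (-0.70). It was -0.095 in SAP against controls with libraries centred on their median. In SAP against AP it was 0.63 without SAP 21, 22, 24 and 25, where with fewer livers it no longer passed. Aqp9 in AP passed with array weights (0.34), and over left-out libraries ranged from 0.23 to 0.37. Aqp1 in SAP against controls passed after rescaling without the 50 most abundant genes (0.71). It also passed with at least 1 TPM in 8 libraries (0.66, limma adjusted p = 0.0488) and with the 2 groups alone (0.66, limma adjusted p = 0.0388). It was 1.13 without SAP 21, 22, 24 and 25, a set that no label names, and over left-out libraries ranged from 0.53 to 0.81. Against AP it was -0.069 after quantile normalization, -0.12 with median centring and -0.36 without SAP 26 to 29, and ranged from -0.079 to 0.26 over left-out libraries. Aqp4 in AP did not pass with no filter (0.23), was -0.21 in SAP against AP and 0.020 in SAP against controls without SAP 21, 22, 24 and 25, and over left-out libraries ranged from -0.056 to 0.0083 in the latter. The ratio of Aqp8 to Aqp11 in AP ranged from -0.86 to -0.57 and passed without Con 8, Con 10, AP 17, AP 18 or AP 19.

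Genes passing between AP and controls numbered 578 (459 higher, 119 lower in AP). Quantile normalization gave 388 higher and 265 lower, rescaling 198 and 225. They numbered 1006 with median centring, 222 with no filter, 1458 with array weights, 877 without SAP 26 to 29, and 179 to 840 over left-out libraries. The count was 209 without Con 1, 179 without Con 7, 225 without Con 10, 184 without AP 15, 211 without AP 17, 352 without AP 18 and 238 without AP 19. In SAP against controls (4661 up, 3147 down) median centring gave 3888 up and 4300 down, and in SAP against AP (4332 up, 3275 down) 3708 and 4278. It took the median change of all genes from 0.21 to -0.06 and from 0.13 to -0.10.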
